A study of Homo sapiens with 4 samples.

Results

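The genes described are 10 that set how a cell takes up iron, stores it and releases it: TFRC, TFR2, FTH1, FTL, SLC40A1, SLC11A2, IREB2, ACO1, HFE and HAMP. They were chosen by name, as the rows carrying these symbols, and make up 10 of the 44591 genes in the expression tables. The 4 RNA-seq libraries are labelled HepG2, an established line from a human liver tumour, and each group holds 2 of them. The siNC libraries received a control siRNA. The siLINC01186 libraries received siRNA against LINC01186, a long noncoding RNA that the study calls SALIS. All cells were transfected near 70% confluency, kept 6 h without serum and then 24 h in medium with 10% serum. The study calls them biological repeats that shared the control siRNA and had different oligos against LINC01186, but the labels do not say which oligo went into which library. What the repeats shared beyond that, such as a culture or a day, is not given in the sources used here.

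Iron reaches most cells bound to transferrin, which is taken up by the transferrin receptor that TFRC encodes. Inside the cell, iron is carried out of the endosome by SLC11A2, stored in a shell of FTH1 and FTL ferritin chains, or exported by ferroportin, the product of SLC40A1. The iron regulatory proteins, made from ACO1 and IREB2, bind hairpins called iron-responsive elements in these mRNAs when iron is scarce. Binding in a 5′UTR blocks translation, and binding in the 3′UTR of TFRC protects the mRNA from decay. In liver cells HFE and TFR2 sense transferrin iron and act on HAMP, which encodes hepcidin, the hormone that removes ferroportin from the cell surface.

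The iron-responsive elements of the members are shown because they mark which of these mRNAs can answer to iron through their level and which through their translation. Annotated UTRs (GENCODE 29, build GRCh38) were searched for a C, 5 bases, the loop CAGTGN with any last base but G, and 5 bases pairing with the first 5. Capitals mark the loop. With no unpaired base, the rule matched 130 of 19644 genes (0.662%) and 4 members. TFRC held 4 copies, all in its 3′UTR on the minus strand, at chr3:196050979-196051007, chr3:196050575-196050603, chr3:196050510-196050538 and chr3:196050463-196050491. FTH1 (chr11:61967574-61967602, minus strand), FTL (chr19:48965335-48965363, plus strand) and SLC40A1 (chr2:189580661-189580689, minus strand) each held 1 in the 5′UTR.
TFRC copy 1: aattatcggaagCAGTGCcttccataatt
TFRC copy 2: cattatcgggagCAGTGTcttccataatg
TFRC copy 3: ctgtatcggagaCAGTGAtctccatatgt
TFRC copy 4: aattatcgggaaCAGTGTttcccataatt
FTH1: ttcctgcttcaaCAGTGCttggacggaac
FTL: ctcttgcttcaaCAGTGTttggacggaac
SLC40A1: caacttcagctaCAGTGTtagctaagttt

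Allowing 1 unpaired base in the 3′ arm raised the match to 341 genes (1.74%) and added 2 members. SLC11A2, whose 3′UTR element is known in 1 group of its transcripts, matched at chr12:50988268-50988297 on the minus strand. IREB2 matched in its 3′UTR at chr15:78500969-78500998 on the plus strand, which is a match of letters and nothing more. TFR2, ACO1, HFE and HAMP had no match.
SLC11A2: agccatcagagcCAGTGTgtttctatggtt
IREB2: catttgctttcaCAGTGAtgagtgagagga

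The libraries held between 14968958 and 17297245 counts. Intervals and detection floors cover counting error only, and a count of 3, the most that a count of 0 allows, came to between 0.169 and 0.210 counts per 1000000 (CPM). The label HepG2 went against its defining markers. ALB, AFP, APOA1, APOB, TTR, SERPINA1, FGB and TF, which hepatocytes or hepatoblastoma cells express strongly, had at most 27 counts and 2.19 transcripts per 1000000 (TPM) in any library. Their sum was 3 counts in siNC replicate 1, 115 in siNC replicate 2, 7 in siLINC01186 replicate 1 and 86 in siLINC01186 replicate 2, and 6, 1, 4 and 0 of the 8 were at 0. The sum therefore moved with the replicate number. The fibroblast markers COL1A1, COL1A2, PDGFRB and DCN summed to 768 and 596 counts in the replicate 1 libraries and 1202 and 1340 in the replicate 2 libraries. Most of that difference came from COL1A1 and PDGFRB. COL1A2 had 134 and 105 counts in replicate 1 and 120 and 135 in replicate 2. The leukocyte list summed to 790 to 916 counts, nearly all from CD68, the endothelial list to 30 to 46 and the erythroid list to 28 to 44. The targeted LINC01186 (hg19, chrX:46185359-46187109) had 15 and 14 counts in siNC and 12 and 14 in siLINC01186. By edgeR, siLINC01186 minus siNC came to -0.12 on the log2 scale, and the standard error (SE) was 0.53. These counts showed no large fall, and a small one could not be resolved at this depth. The study reports knockdown of this RNA by qPCR in HepG2 cells. Whether the sequenced RNA was measured that way is not stated. The study's supplement reports that a DNA profile of its HepG2 stock fully matched a HepG2 entry of a cell bank. Whether the sequenced cells were profiled is not given in the sources used here. Libraries are named below by their labels.

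Without knockdown, ferritin mRNA stood far above the other members. On the TPM scale, which is per base of gene length and so allows genes to be compared, FTH1 was at 8904 and 8872 TPM in the 2 siNC libraries and ranked 11 among all genes. FTL followed at 1817 and 1772 TPM, rank 56, and TFRC at 207 and 143 TPM, rank 802. Both ferritin chains thus exceeded the receptor in each siNC library.

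The remaining members were lower and closer together. TFR2, the liver-type receptor, was at 58.9 and 31.8 TPM, and ACO1 at 33.5 and 43.8 TPM, so their ranges overlapped and their order was not resolved. IREB2 was at 27.7 and 25.9 TPM, SLC11A2 at 20.8 and 25.1 TPM, and HFE at 18.9 and 17.6 TPM. Those 3 ranges did not overlap, though IREB2 and SLC11A2 came within 1 TPM of each other.

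SLC40A1 and HAMP, the exporter and its hormone, were at the floor of detection. SLC40A1 had 2 and 0 counts in siNC and 1 and 1 in siLINC01186. HAMP had 3 and 0 counts in siNC and 0 and 0 in siLINC01186. The highest of these, 3 HAMP counts in siNC replicate 1, equalled 0.179 CPM, the floor of that library. Both fell below the minimum of 5 summed counts and entered no test. No fold is given for either, and the 8 other members were tested.

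**Figure D1:**
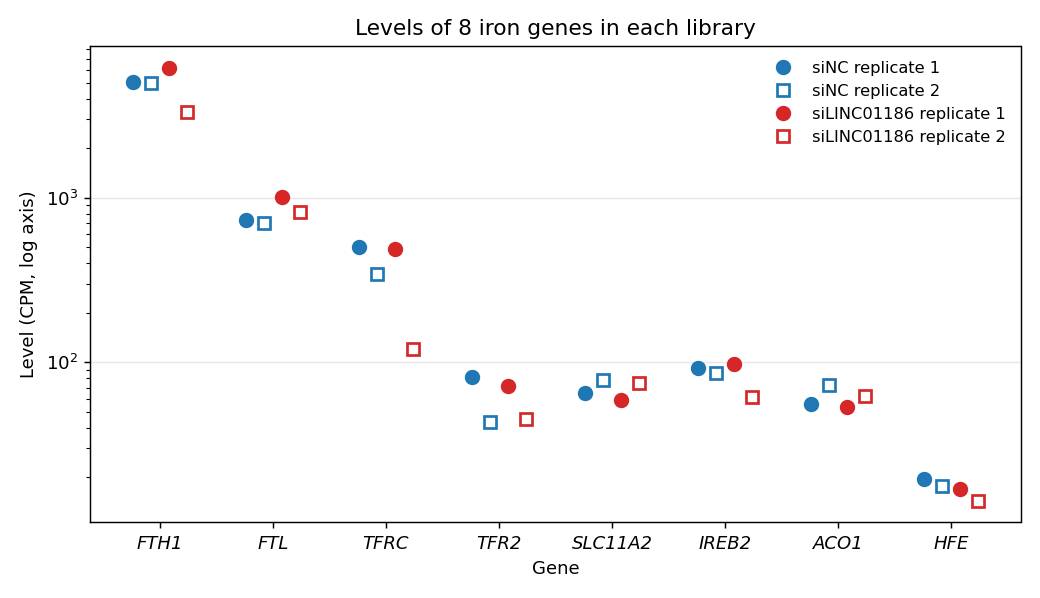
Level in CPM on a log axis of the 8 tested members in each of the 4 libraries, with circles for replicate 1, squares for replicate 2, blue for siNC and red for siLINC01186. FTH1 lies highest, at 3338 to 6188 CPM, and TFRC and FTH1 in siLINC01186 replicate 2 lie well under their other 3 points.

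The knockdown comparison asks whether these genes differed between siLINC01186 and siNC. No member passed the test, which was fitted without a block for the replicate number. Across all 23942 genes tested, 0 (0%) passed an adjusted p of 0.05 by edgeR's quasi-likelihood test, 289 (1.21%) had an unadjusted p under 0.05, and DESeq2 called 1. Among the 8 members, 0 had an unadjusted p under 0.05 by edgeR and 0 by DESeq2, and all 8 had an adjusted p of 1.00 by edgeR. The study's own limits, a log2 fold change beyond 1 with an unadjusted p under 0.05, took 181 genes (0.756%) and 0 members. The median log2 fold change was -0.13 over the 8 members and 0.00 over all genes tested.

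TFRC (hg19, chr3:195776155-195809032, minus strand) carried the widest spread. Its level was 505 and 344 CPM in siNC and 490 and 121 CPM in siLINC01186. The siLINC01186 replicate 2 library was the lowest of the 4, while the replicate 1 library sat within the siNC range. The difference, siLINC01186 minus siNC on the log2 CPM scale, was -0.04 in replicate 1 and -1.51 in replicate 2. Over both replicates the log2 fold change was -0.47 (SE 0.51, adjusted p = 1.00 by edgeR). It was 0.20 without siLINC01186 replicate 2 and -1.81 without siLINC01186 replicate 1, so the sign rested on a single library.

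FTH1 (chr11:61731757-61735132), the ferritin heavy chain that oxidises iron for storage, was at 5044 and 4964 CPM in siNC and at 6188 and 3338 CPM in siLINC01186. The siNC libraries were close together, and the siLINC01186 libraries lay on either side of them. The log2 fold change was -0.07 (SE 0.28, adjusted p = 1.00 by edgeR).

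FTL (chr19:49468566-49470136), the light chain that helps form the iron core, was at 730 and 703 CPM in siNC and at 1011 and 823 CPM in siLINC01186. It was the 1 member whose siLINC01186 libraries both lay above both siNC libraries, as 13.6% of all tested genes did. The log2 fold change was 0.36 (SE 0.19, adjusted p = 1.00 by edgeR) and ranged from 0.20 to 0.49 when each library was left out in turn.

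HFE (chr6:26087509-26095469), the sensor mutated in hereditary hemochromatosis, was at 19.4 and 17.8 CPM in siNC and at 16.9 and 14.4 CPM in siLINC01186. It was the 1 member with both siLINC01186 libraries below both siNC libraries, as 12.4% of tested genes were. The log2 fold change was -0.25 (SE 0.22, adjusted p = 1.00 by edgeR).

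TFR2 (chr7:100218039-100239173) was at 80.9 and 43.2 CPM in siNC and 72.0 and 45.0 CPM in siLINC01186. The groups overlapped almost fully, and the log2 fold change was -0.09 (SE 0.32, adjusted p = 1.00 by edgeR). SLC11A2 (chr12:51373566-51422058) was at 65.2 and 77.9 CPM in siNC and at 58.8 and 74.3 CPM in siLINC01186, with a log2 fold change of -0.10 (SE 0.20).

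The pair of iron regulatory proteins overlapped between groups as well. IREB2 (chr15:78730518-78793798) was at 92.4 and 85.5 CPM in siNC and 97.8 and 61.5 CPM in siLINC01186, with a log2 fold change of -0.16 (SE 0.24). ACO1 (chr9:32384601-32450834), which is an aconitase when it holds an iron-sulfur cluster, was at 56.0 and 72.2 CPM in siNC and 53.4 and 62.2 CPM in siLINC01186, with a log2 fold change of -0.15 (SE 0.20). TFRC, TFR2, FTH1, SLC11A2, IREB2 and ACO1 each took the opposite sign when some single library was left out, and FTL and HFE did not.

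**Figure D2:**
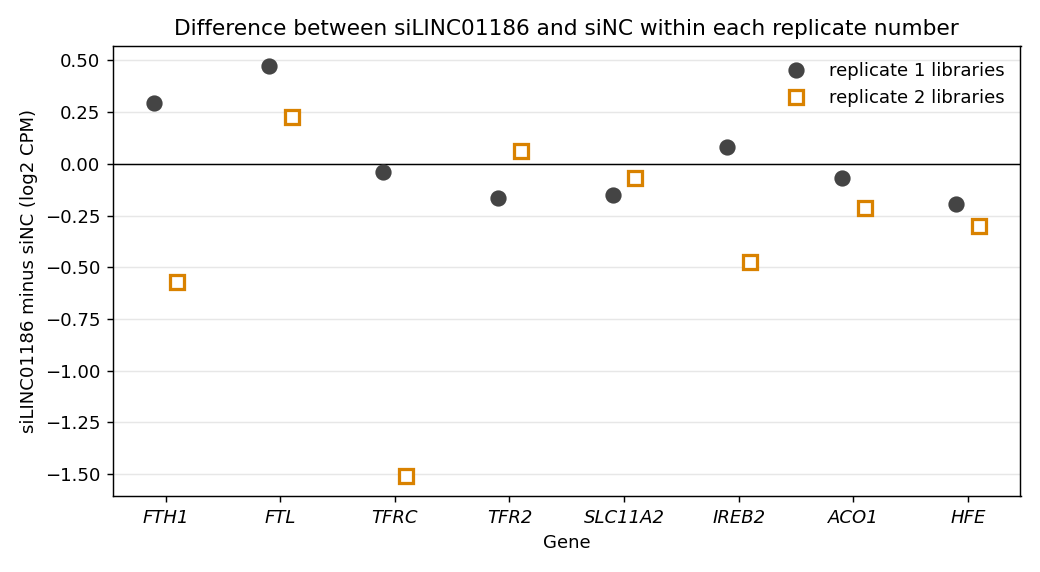
Difference between siLINC01186 and siNC on the log2 CPM scale for each tested member, with filled circles for the replicate 1 libraries and open squares for the replicate 2 libraries; each point is a difference of 2 libraries and has no error. FTL is above 0 in both numbers (0.47 and 0.23), TFRC is at -0.04 and -1.51, and FTH1, IREB2 and TFR2 change sign, of which FTH1 alone does so with deposited TPM.

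Within the replicate numbers, 4 members were lower in siLINC01186 in both (26.2% of tested genes were), 5 in replicate 1 (48.3%) and 6 in replicate 2 (49.9%). The members that were lowest in siLINC01186 replicate 2 relative to its siNC library were TFRC (-1.51), FTH1 (-0.57) and IREB2 (-0.48). SLC11A2 (-0.15 and -0.07), ACO1 (-0.07 and -0.22) and HFE (-0.19 and -0.30) differed by less in either number. On the deposited TPM scale these signs partly turned, since the median of 21085 tested genes with a TPM above 0 in every library was -0.25 in replicate 1 and -0.09 in replicate 2, against 0.01 and 0.00 on the CPM scale. There, 6 members were lower in both numbers, as 50.2% of those genes were, 6 in replicate 1 (79.5%) and 7 in replicate 2 (60.7%). TFR2 was then at -0.42 and -0.03 and IREB2 at -0.17 and -0.56, each of 1 sign, while FTH1 (0.04 and -0.66) stayed opposite. TFRC was at -0.30 and -1.60, and FTL stayed higher in both at 0.22 and 0.14.

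The siRNA oligos are shown because a short match between an siRNA's seed, bases 2 to 8, and a 3′UTR is a known route by which such oligos act on other mRNAs. Capitals mark the seed on the strand listed by the study. Which strand of each oligo acts as the guide was not determined, so both strands were searched.
siSALIS_01: aGGGCTCTattgggcaaaaa
siSALIS_02: cTAAGTGActcactgcatc
For the listed strand of siSALIS_02, the complement of the seed, TCACTTA, was present in the longest annotated 3′UTR of 11.1% of 19545 genes. Of the members TFRC and IREB2 each held 2 copies and HFE held 1, in 3′UTRs of 2661, 3316 and 4120 bases. The share of 11.1% covers 3′UTRs of every length and was not matched to these lengths. The TFRC copies lie on the minus strand at chr3:196050702-196050724 and chr3:196049865-196049887 (GRCh38), and neither overlaps an iron-responsive element. The IREB2 copies lie on the plus strand at chr15:78498237-78498259 and chr15:78501228-78501250, and the HFE copy on the plus strand at chr6:26097105-26097127.
TFRC site 1: aatcaatgTCACTTAaaggctgt
TFRC site 2: tcttagtgTCACTTAcctagatt
IREB2 site 1: cagtatacTCACTTAtctcatcc
IREB2 site 2: catatatcTCACTTAagtaacaa

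The 3′UTR of FTH1, of 445 bases, held no TCACTTA. For the listed strand of siSALIS_01, the complement of the seed, AGAGCCC (11.9% of genes), was in no member's 3′UTR. The sites of the opposite oligo strands were ACTGCAT (12.3% of genes), found once in SLC40A1 and ACO1 and in 2 copies in HFE, and GGCAAAA (12.9%), found once in ACO1 and HFE. TFRC and IREB2 held no site of either opposite strand. Since the labels do not give the oligo of each library, the part of these matches in the values was not tested.

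The larger contrast among the 4 libraries was between the replicate numbers. With treatment as a term, 4191 of 23942 genes (17.5%) passed an adjusted p of 0.05 between replicate 1 and replicate 2 by edgeR, and 4 of the 8 tested members did. TFRC, TFR2, FTH1 and IREB2 were higher in replicate 1, as 9.55% of tested genes were, and 0 members were lower, against 7.96%. The 4 libraries left 1 residual degree of freedom, so these p-values and the SEs given with them rest almost wholly on a spread shared across genes. The SEs do not measure how far the difference in siNC lay from that in siLINC01186. By DESeq2, which called 929 genes, TFR2 alone of the members passed. Within the siLINC01186 libraries the replicate number cannot be told apart from the oligo, and the hepatocyte and fibroblast marker sums given above moved with the number; their part in the results was not tested. In these bulk libraries, fewer cells of a type and less RNA per cell cannot be told apart.

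TFR2 was the most stable of these. Its counts were 1355 and 1029 in replicate 1 and 697 and 800 in replicate 2, or 80.9 and 72.0 CPM against 43.2 and 45.0 CPM. The groups did not overlap, as for 4 members and 25.6% of tested genes with both replicate 1 libraries on top, and the difference was of like size in siNC (log2 0.90) and siLINC01186 (0.68). The log2 fold change, replicate 1 minus replicate 2, was 0.79 (SE 0.13, adjusted p = 3.55e-08 by edgeR). It passed in all 10 settings computed, with adjusted p from 2.37e-08 to 0.0102 by edgeR or DESeq2. TFR2 is best known in hepatocytes and erythroid precursors. The hepatocyte marker sum was 0.179 and 0.490 CPM in replicate 1 and 7.12 and 4.84 CPM in replicate 2. The erythroid sum, which rests on 28 to 44 counts, nearly all from HBA1, was 2.63 and 2.24 CPM in replicate 1 and 1.98 and 1.58 CPM in replicate 2. Their part in the TFR2 result was not tested.

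TFRC was higher in replicate 1 by a log2 fold change of 1.28 (SE 0.10, adjusted p = 9.70e-32 by edgeR). Its counts were 8451 and 7002 in replicate 1 and 5550 and 2146 in replicate 2. Both replicate 1 libraries were above both replicate 2 libraries, but the difference was 0.55 within siNC and 2.02 within siLINC01186. Fitted without the treatment term, it was 0.54 without siLINC01186 replicate 2 and 2.02 without siNC replicate 2. With all 4 libraries and no treatment term it was 1.10 (adjusted p = 0.0254 by edgeR). DESeq2 gave 1.29 with an SE of 0.68 and an adjusted p of 0.274.

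FTH1 was higher in replicate 1 by a log2 fold change of 0.46 (SE 0.07, adjusted p = 3.18e-09 by edgeR), yet its siNC libraries differed by only 0.02 and its siLINC01186 libraries by 0.89. Without siLINC01186 replicate 2 the value was 0.18, and without siLINC01186 replicate 1 it was 0.28, both fitted without the treatment term. With all 4 libraries and no treatment term it was 0.44 (adjusted p = 0.0777 by edgeR). DESeq2 gave an SE of 0.19 and an adjusted p of 0.131. The difference lay between the siLINC01186 libraries.

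IREB2, the iron regulatory protein that is itself degraded when iron is plentiful, showed the same split. It was higher in replicate 1 by 0.39 (SE 0.12, adjusted p = 0.0109 by edgeR), with 0.11 in siNC and 0.67 in siLINC01186. Without siLINC01186 replicate 2 the value was 0.16, and without siNC replicate 1 or siLINC01186 replicate 1 it was 0.41 and 0.33. These fits had no treatment term, and with all 4 libraries such a fit gave 0.37 (adjusted p = 0.138 by edgeR). DESeq2 gave an adjusted p of 0.228.

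SLC11A2 and ACO1 lay below replicate 2 in both replicate 1 libraries, as 27% of tested genes did. SLC11A2 had a log2 fold change of -0.30 (SE 0.12, adjusted p = 0.0812 by edgeR). ACO1 had -0.29 (SE 0.13, adjusted p = 0.0934 by edgeR), and -0.40 without siLINC01186 replicate 2 in a fit without the treatment term. FTL had 0.18 (SE 0.09, adjusted p = 0.174 by edgeR) and HFE 0.18 (SE 0.16, adjusted p = 0.537 by edgeR), and neither passed in any setting. Over the 8 members the median log2 fold change was 0.28, against -0.02 over all genes tested.

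**Figure D3:**
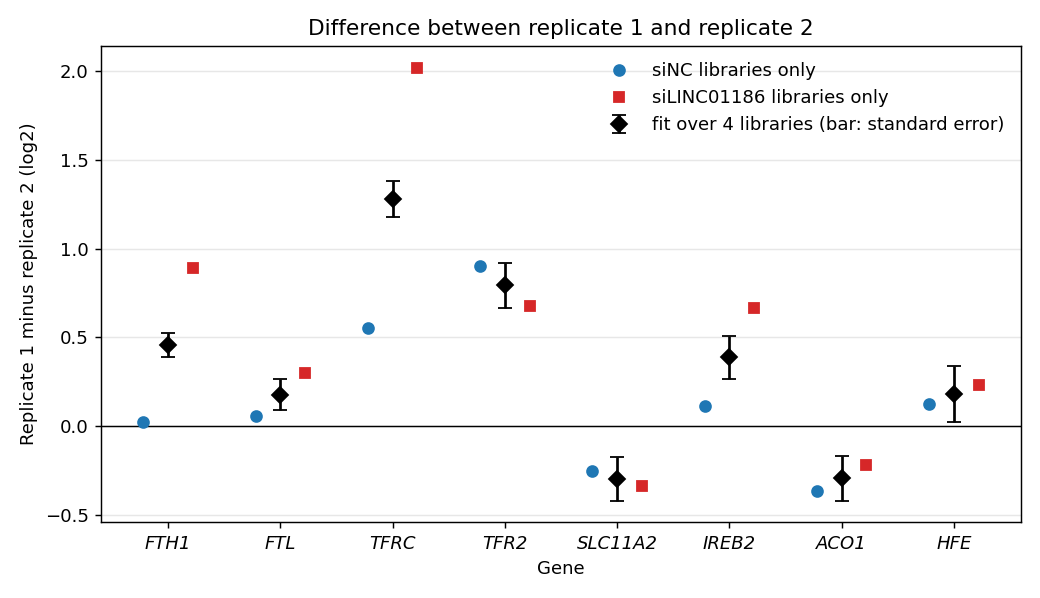
Replicate 1 minus replicate 2 on the log2 scale for each tested member, as the edgeR fit over 4 libraries with its standard error (black), within siNC (blue) and within siLINC01186 (red). The bars do not measure the gap between the blue and red points. TFR2 is alike in both treatments (0.90 and 0.68), whereas FTH1 is near 0 in siNC (0.02) and at 0.89 in siLINC01186.

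Ratios between members of one library do not depend on its scaling. Per base of gene length, the FTH1 to FTL ratio was 4.90 and 5.01 in siNC and 4.34 and 2.87 in siLINC01186, so both siLINC01186 libraries lay below. The TFRC to TFR2 ratio was 3.51 and 4.48 in siNC and 3.83 and 1.51 in siLINC01186. The IREB2 to ACO1 ratio was 0.825 and 0.916 in the replicate 1 libraries and 0.592 and 0.495 in the replicate 2 libraries, so it split by replicate number. An exact permutation test of 2 against 2 cannot give a two-sided p below 0.333, and none is given.

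**Figure D4:**
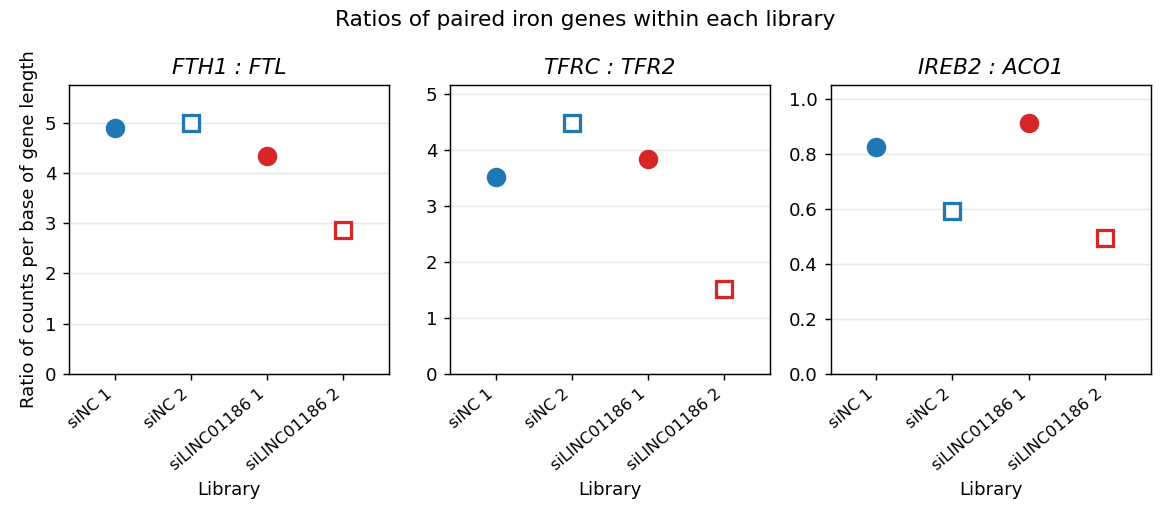
Ratio of counts per base of gene length for FTH1 to FTL, TFRC to TFR2 and IREB2 to ACO1 in each library, on axes that start at 0 (blue siNC, red siLINC01186, circles replicate 1, squares replicate 2). The first 2 ratios are lowest in siLINC01186 replicate 2 (2.87 and 1.51), and the third is lower in both replicate 2 libraries (0.592 and 0.495).

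Ferritin genes have many processed copies in the genome, and the way the authors' counting treated reads shared with them is not given in the sources used here. The 21 numbered FTH1 pseudogene rows summed to 192 and 167 counts in siNC and 209 and 127 in siLINC01186, at most 0.236% of the FTH1 count. FTH1P8, FTH1P2 and FTH1P23 held the most. The 10 FTL pseudogene rows held 3 to 10 counts per library, at most 0.0818% of FTL.

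Around the members, 93 other genes of iron handling were read from 9 lists, and 90 had enough counts to be tested. Between siLINC01186 and siNC, 0 of the 90 passed by edgeR or by DESeq2, and 1 had an unadjusted p under 0.05. That gene was SMAD5, a BMP signal carrier on the path to hepcidin, with a log2 fold change of -0.56 (SE 0.22, adjusted p = 1.00 by edgeR). Among the genes with the smallest p in the other lists were SMAD7 (-0.45), which curbs that signal, GLRX5 (-0.42), IL6ST (-0.31), GLRX3 (0.28), CLTC (-0.23) and CP (0.51), all with an unadjusted p of 0.0648 or more. HP led the heme uptake list with 3 and 4 counts in siNC and 1 and 0 in siLINC01186.

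Between the replicate numbers, 10 of the 90 were higher in replicate 1 and 11 lower by edgeR, beside the 17.5% of all genes called. DESeq2 called 5 of them. Uptake outside the transferrin route had 0 higher and 3 lower of 12: SCARA5 (-0.99), a receptor for ferritin, LRP1 (-0.50), which takes up heme bound to hemopexin, and SLC48A1 (-0.46), a heme transporter. In the transferrin list of 10, CLTC, the clathrin heavy chain, was higher (0.27), and TF, transferrin itself, was lower, with 0 and 1 counts in replicate 1 and 26 and 12 in replicate 2. TF is one of the hepatocyte markers that moved with the number.

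Storage had 1 higher of 5 (GLRX3, 0.35, a carrier of iron-sulfur clusters), export 1 of 5 (FLVCR1, 0.52, described as a heme exporter) and the regulators of iron regulatory proteins 1 of 9 (CUL1, 0.35, a ubiquitin ligase scaffold). FBXL5, which marks IREB2 protein for decay, had 0.15 and NCOA4, which brings ferritin to lysosomes, had -0.05, and neither passed. B2M, the partner that HFE needs to reach the surface, had 0.03, and the ferroxidase CP had -0.38, without passing either.

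In the hepcidin lists, BMP2 was lower in replicate 1 (-0.48), the 1 call among 15 tested inputs of the BMP-SMAD path. Of 8 target genes of that path, ID1 (0.36) and SMAD6 (0.35) were higher and BAMBI (-0.99) lower. The IL-6 list had 3 of 9 lower: CREB3L3 (-2.33), a transcription factor of liver and gut, CEBPA (-0.56) and JAK1 (-0.36). CREB3L3 was at 1.31 and 1.19 CPM in replicate 1 and 5.64 and 7.15 CPM in replicate 2, moving with the hepatocyte sum given above. HJV, a BMP co-receptor, had 3 counts in siNC replicate 2 and 0 elsewhere, and TMPRSS6, the protease that cleaves it, had 2 and 1 counts in replicate 1 and 8 and 8 in replicate 2.

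Mitochondrial and heme genes moved both ways, with 4 higher and 2 lower of 17. Among the higher, GLRX5, which carries iron-sulfur clusters, had 0.44, HMOX2 had 0.40 and ALAS1, the first enzyme of heme synthesis, had 0.35. HMOX1, the inducible heme oxygenase, had -0.72 and PPOX, a later heme synthesis enzyme, had -0.49.

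**Figure D5:**
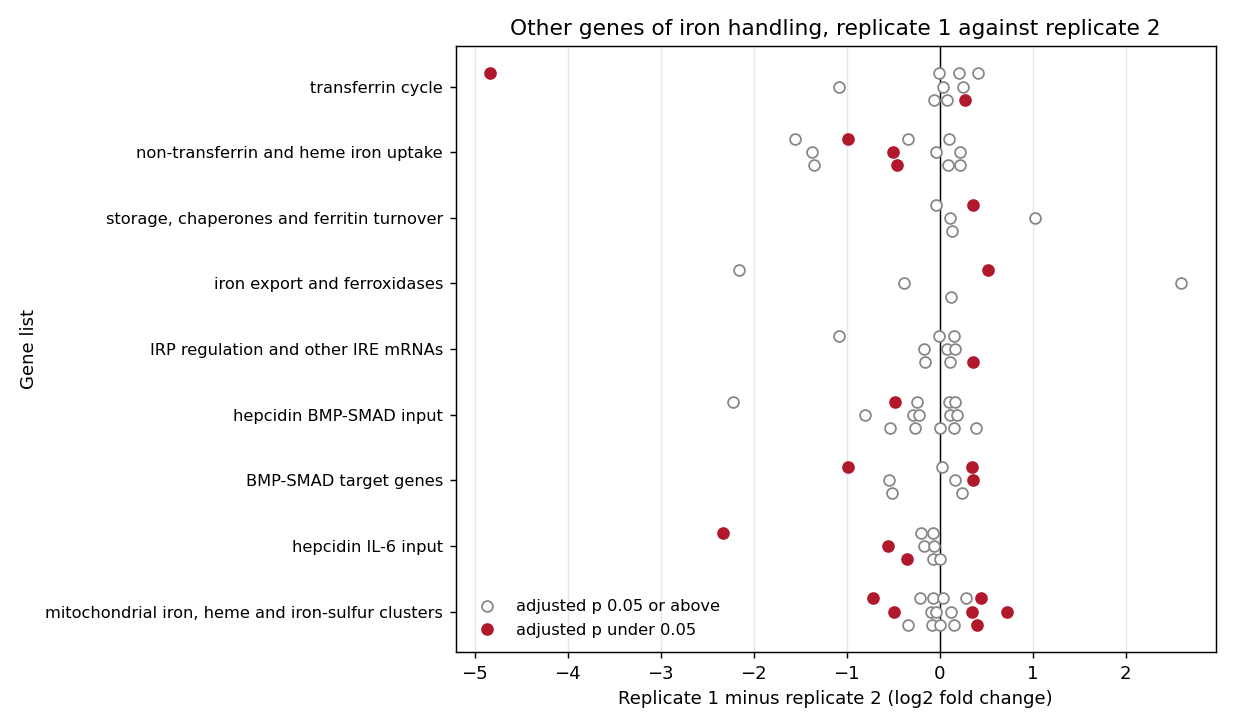
Replicate 1 minus replicate 2 as an edgeR log2 fold change for the 90 tested genes of 9 lists, with filled red points for an adjusted p under 0.05. The 21 filled points fall on both sides of 0; the leftmost, TF, rests on 0 and 1 counts in replicate 1, so its fitted size depends on the prior count.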

How the data were processed

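RNA-seq libraries labelled HepG2 (2 siNC and 2 siLINC01186) were used, and groups and replicate numbers were taken from the labels. The authors deposited raw read counts per gene and TPM values with hg19 positions. The submitters' processing notes name HISAT2, HISAT, TopHat2, Bowtie2 and hg19, and the counting program and strand setting are not given in the sources used here. A gene needed a total of 5 counts or more across the 4 libraries; TMM scaling and the quasi-likelihood test of edgeR 4.0.16 (R 4.3.3) followed. Treatment was a term between replicate numbers, except in a stated alternative and in the fits that left out a library. Benjamini-Hochberg adjustment covered the 23942 genes tested. CPM uses TMM-scaled library sizes, and log2 CPM within a replicate number uses a prior count of 2. DESeq2 1.42.0, deposited TPM, other filters, a block and leaving out each library were alternatives. The fits were run on simulated data with the same spread for every gene, which does not show how well they hold for these libraries. Members and lists were chosen with earlier results of these data known. In the lists, called genes were named, up to 3 per direction, otherwise the gene with the smallest p, with TF, B2M, HJV, TMPRSS6, FBXL5, NCOA4 and CP always; ALAS1, a further call, was added after its value was seen. A few results of the lists and of a promoter search are not reported here.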

Additional observations from a re-analysis of the deposited data

Results flagged for a closer look

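For 3 members the difference between siLINC01186 and siNC pointed in opposite directions in the 2 replicate numbers, and the difference between the numbers was not tested, since each number holds 1 library per treatment. On the log2 CPM scale, TFR2 differed by -0.167 in replicate 1 and 0.0600 in replicate 2. FTH1 differed by 0.295 in replicate 1 and -0.573 in replicate 2. IREB2 differed by 0.0812 in replicate 1 and -0.475 in replicate 2. With deposited TPM, FTH1 alone stayed opposite, while TFR2 (-0.42 and -0.03) and IREB2 (-0.17 and -0.56) were lower in siLINC01186 in both numbers.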

How the results depend on the processing

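Between siLINC01186 and siNC, the count of all genes called was 1 by DESeq2, 5 with at least 1 count in any library and 0 to 6 when each library was left out. With the replicate number as a block it was 278 (1.16%). That block called 2 members, TFRC (-0.77, adjusted p = 1.45e-10 by edgeR) and FTL (0.35, adjusted p = 0.0121 by edgeR), and 1 list gene, SMAD5. The block fit left 1 residual degree of freedom, so its p-values rest almost wholly on a spread shared across genes. Within the 2 numbers TFRC differed by -0.04 and -1.51, and FTL by 0.47 and 0.23. The labels do not say what a number shares. Deviations of same-numbered libraries correlated at 0.563 over 16848 genes, and the first principal component (62.4% of variance) separated the numbers. The study's limits took 0 to 1 members when a library was left out; the 1 was TFRC without siLINC01186 replicate 1. Deposited TPM took the members lower in siLINC01186 in both numbers from 4 to 6. Between replicate numbers, the 4 members called became 1 by DESeq2, 2 with edgeR's expression filter, 2 without the treatment term and 2 to 4 when a library was left out. Members past the study's limits were 0 by DESeq2 and 0 to 1 when a library was left out. All genes called were 929, 2754, 2158 and 1294 to 3332, and list genes 5, 13, 9 and 5 to 19, in the same order. FTH1 and IREB2 were lost by DESeq2, with the expression filter and without the treatment term, and the cause was not tested. The fits between replicate numbers that left out a library also had no treatment term. No member that had passed the test between replicate numbers reversed in direction, and the directions of the other genes were not compared. Depth limited SLC40A1, HAMP and HJV, and it kept a small change in LINC01186 from being resolved. In every comparison, 2 libraries per group limit the p.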
